A study of Mus musculus with 8 samples.

Results

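The proteasome subunits were followed in retrogradely labelled sensory neurons from dorsal root ganglia (DRG) of the mouse, which hold the cell bodies of the somatosensory afferents. All gene rows whose symbol began with Psm, a letter from a to g and a digit were taken, which gave 49 of the 22609 rows of the count tables. They comprised 7 alpha and 7 beta subunits of the constitutive core, 3 immunoproteasome subunits, 2 tissue-specific core subunits, 17 cap subunits (9 of the base and 8 of the lid), 5 activators and inhibitors and 7 assembly chaperones. Psmc3ip, a meiotic recombination factor, matched by its name only. The low-count filter kept 46 members among 12518 tested genes, and Psma8, Psmb11 and Psmc3ip did not pass it.

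The study compared naïve C57BL/6J females in the estrous phase with naïve males, 8 to 12 weeks old, asking how the sexes differ in afferents of the hindpaw and thigh. The lectin conjugate WGA-488 was injected into both hindpaws and both thighs of every mouse, and 2 days later labelled cells of the L3 to L5 DRG were collected by fluorescence-activated sorting, so each library mixed skin and muscle neurons. There were 4 female and 4 male libraries made with SMART-seq2, an oligo-dT protocol with PCR amplification for small amounts of RNA, and read as single reads of 50 bases. The design names 4 males and 4 females, and each library was made from 6 ganglia.

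The proteasome degrades proteins that carry ubiquitin chains. Its core particle is a barrel of stacked rings, with outer alpha rings that gate the entrance and inner beta rings that hold the proteolytic sites of Psmb5, Psmb6 and Psmb7. The cap binds ubiquitin, unfolds the substrate with ATPases (Psmc genes) and threads it into the core, and in cells exposed to interferon Psmb8, Psmb9 and Psmb10 can replace the constitutive catalytic subunits. Long-lived neurons depend on this machinery for turnover of axonal and synaptic proteins.

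Depth was 4.80 to 7.33 M gene reads per library (M, 1e6 reads), at which 3 reads correspond to 0.409 to 0.625 counts per 1e6 gene reads (CPM). Neuronal markers were high in all libraries, with 25334 to 36267 CPM summed over 15 genes in females and 25209 to 28620 CPM in males. Glial markers were also present at 11814 to 15216 CPM over 14 genes in females and 5605 to 11396 CPM in males, so the libraries were not purely neuronal. Female replicate 4 stood apart from the other females, with a chi-square per degree of freedom of 30.1 to 44.9 against them, where no other pair within a sex exceeded 12.1. Results that rest on it are given with and without it below.

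Several core subunits have processed copies elsewhere in the genome, and a 50-base read from an identical stretch aligns to more than 1 place. The stretches below lie in coding exons and are identical, base for base, to a second locus (build mm9, exon strand, 5′ to 3′). They are shown because they bear on which reads of these members could be counted. The Psmb5 stretch (chr14:55233032-55233081, minus strand) recurs on chromosome 7 at a place with no annotated gene, that of Psmb3 (chr11:97565102-97565151, plus strand) in Gm6467 on chromosome 16, that of Psma5 (chr3:108064604-108064653, plus strand) in Gm12989 on chromosome 4, and that of Psma3 (chr12:72084306-72084355, plus strand) in Gm13835 on chromosome 6. The Psme2 stretch (chr14:56206325-56206374, minus strand) recurs in Psme2b-ps on chromosome 11.

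Psmb5: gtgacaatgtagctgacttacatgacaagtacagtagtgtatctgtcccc
Psmb3: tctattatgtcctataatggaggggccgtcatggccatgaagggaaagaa
Psma5: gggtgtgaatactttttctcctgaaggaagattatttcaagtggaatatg
Psma3: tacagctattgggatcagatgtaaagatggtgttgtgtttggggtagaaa
Psme2: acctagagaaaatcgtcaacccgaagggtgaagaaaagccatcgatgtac

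Core and cap transcripts were abundant, but 9 of the 31 have copied sequence in over 10% of their coding windows. Levels per gene length are given as mean CPM over the 8 libraries per kb of coding sequence. Among the 14 constitutive core subunits, the 8 with at least 90% of coding 50-base windows free of an identical copy elsewhere lay between 211 and 508 CPM per kb, a 2.41-fold range with a median of 438. Psma7, an alpha-ring subunit, was at the top of this range with 508, followed by Psmb1 with 497, Psmb6 with 454, Psmb2 with 445 and Psmb4 with 432. The 6 core subunits with fewer such windows had a lower median of 85.8 CPM per kb. They lay between 24.3 and 299 CPM per kb, so the 2 ranges overlapped.

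The 2 lowest core subunits were those with the most copied sequence. Psma3, an alpha-ring subunit, had 14.4% of its coding windows free of copies and a level of 24.3 CPM per kb. Psma5 had 20.9% and 66.3 CPM per kb, Psma4 61.0% and 73.7 CPM per kb, Psmb3 29.3% and 97.9 CPM per kb, and Psmb5 43.2% and 149 CPM per kb. Psma2, with 83.6% and 299 CPM per kb, lay inside the range of the members with at least 90%. Across the 14 core members, the level per coding kb and the share of windows free of copies gave a Spearman rho of 0.80, and across the 17 cap members a rho of 0.24. The rho depended on the length used. With whole transcripts it was 0.68 for the core and 0.26 for the cap, and with all exon bases of the gene 0.57 and 0.12. These points come from the same 8 libraries, and on the coding scale coding length enters both measures.

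**Figure D1:**
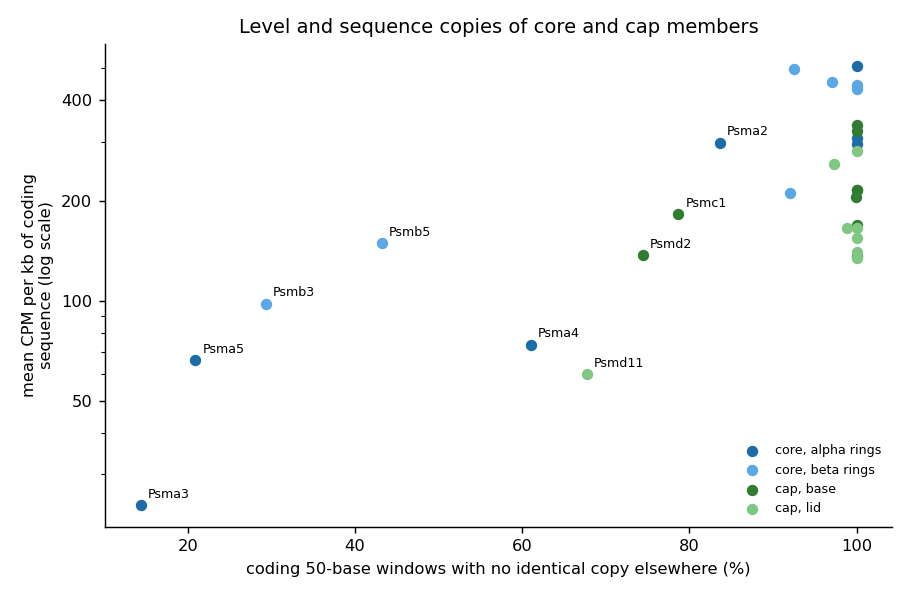
Mean level of the 31 core and cap members over the 8 libraries (CPM per kb of coding sequence, log scale) against the percentage of their coding 50-base windows with no identical copy elsewhere in mm9. The core members below 90% lie between 24.3 and 299 CPM per kb, and those above 90% between 211 and 508; members below 90% are named.

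With whole transcripts as the length, the order of the extremes was similar. The alpha rings ran from Psma3 at 6.53 CPM per kb of coding transcript to Psma7 at 414, and the beta rings from Psmb3 at 78.6 to Psmb6 at 407. Psma2 and Psma3 have long annotated transcripts of 2668 and 2846 bases for coding sequences of 702 and 765 bases, which lowers their level on this scale. In the cap base, Psmc6 was lowest at 109 and Psmc5 highest at 313 CPM per kb of transcript, and both encode ATPases of the unfolding ring. In the lid, Psmd11, a scaffold subunit with 67.7% of coding windows free of copies, was lowest at 26.6 and Psmd7, the partner of the deubiquitinase Psmd14, highest at 170.

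Outside the core and cap, the class medians were lower, although Psmd5 and Psmb10, at 53.9 and 61.6 CPM per kb of transcript, exceeded some core members. The activators and inhibitors had a median of 17.0 CPM per kb of transcript, from 3.97 for Psme4, a large nuclear activator, to 28.5 for Psmf1, which binds and modulates the core. The assembly chaperones had a median of 27.8, from 18.4 for Psmd9 to 53.9 for Psmd5, both chaperones of the cap base. The cap base and lid had medians of 135 and 106 on the same scale.

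The tissue-specific core subunits were at or near the detection floor. Psma8, the alpha subunit of the testis proteasome, had 2 to 7 reads per library. Psmb11, the thymic beta subunit of cortical epithelium, had 0 reads in 7 libraries and 1 read in male replicate 4. Psmc3ip had 3 to 16 reads.

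The core and cap differed little between the sexes, and replicate spread was small except for female replicate 4. Summed over the 31 core and cap members, females had 6731, 6552, 6870 and 8742 CPM in replicates 1 to 4 and males 7093, 7214, 7078 and 7165 CPM. Female replicate 4 was above every other library, the other 3 females were below all males, and the 4 males lay within a narrow band. The mean was 7224 ± 1020 CPM in females and 7138 ± 63.4 CPM in males (SD, n = 4 each).

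Male libraries agreed closely for single core and cap genes. Their median coefficient of variation was 3.76%, against 5.75% for the 2190 tested genes with a mean of at least 100 CPM and 11.8% for all tested genes. Among females it was 15.1%, and 5.78% over female replicates 1 to 3, where the genes of at least 100 CPM had 16.7% and 7.05%. Female replicate 4 held the highest value of the 8 libraries for 27 of the 31 core and cap members and for 35 of the 46 tested members, where it held the highest value for 31.4% of all tested genes. Its core and cap members lay a median of 0.31 above their mean over the libraries on the log2(CPM + 1) scale. For all tested genes that median was 0.02, and in the other females the core and cap median lay between -0.12 and -0.04. Female replicate 4 also had the highest summed neuronal (36267 CPM), glial (15216 CPM), fibroblast (156 CPM) and endothelial (30.3 CPM) markers, but not the highest immune markers (28.5 CPM). The part of these cells in its values was not tested.

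**Figure D2:**
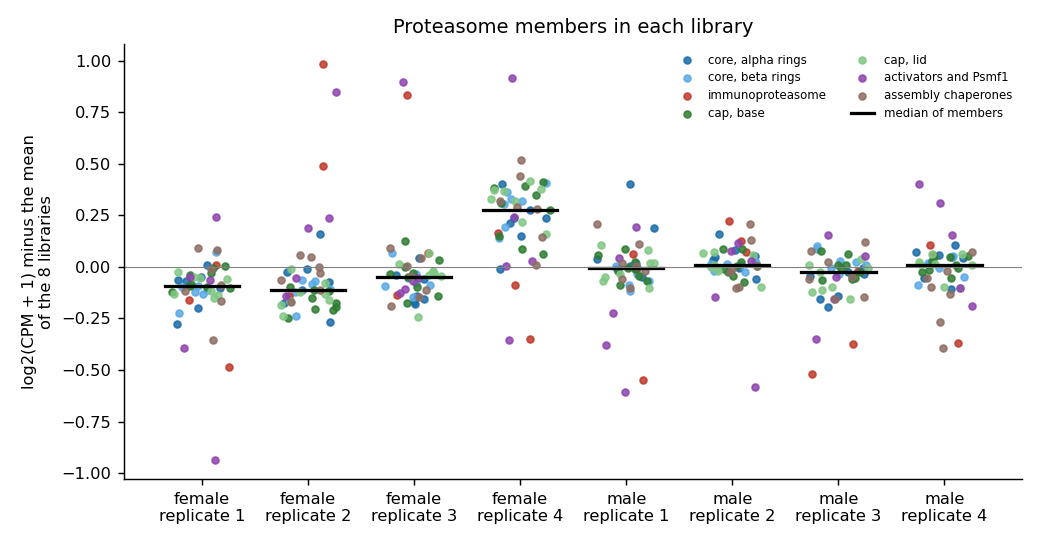
Deviation of each of the 46 tested members from its own mean over the 8 libraries, in log2(CPM + 1), by library; points are genes coloured by class and black bars are medians over members. The median of female replicate 4 is 0.28, and those of the other 7 libraries lie between -0.11 and 0.01.

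In the edgeR quasi-likelihood test with Benjamini-Hochberg adjustment over 12518 genes, 0 of 46 members passed an adjusted p of 0.05, where 0.0879% of all tested genes did. DESeq2 and limma-voom also gave 0. At an unadjusted p under 0.05 edgeR called 2 members, Psme3 and Psmb9, both higher in females (7.11% of all tested genes passed, 4.44% with the female and 2.67% with the male level higher), DESeq2 called the same 2 genes and limma-voom 0. The median log2 fold change, female over male, was 0.01 over the 46 members and 0.00 over all tested genes, and 24 members had a positive and 22 a negative log2 fold change. The test was also run on simulated counts with these means and dispersions, at an adjusted p under 0.05. It recovered 1.5% of genes changed 1.5-fold and 65% of genes changed 2-fold, so most 1.5-fold changes were missed. The changed genes were drawn from all tested genes, which have a median of 25.6 CPM. The core and cap members have a median of 238 CPM and a smaller spread, so these rates are not those of the members.

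For the core and cap the intervals of this edgeR fit limit how large a difference could be in it. Of 31 members, 16 had a positive and 15 a negative log2 fold change, with a smallest unadjusted p of 0.105 (edgeR) and 95% intervals that all lay between -0.67 and 0.39 on the log2 scale. For the 7 beta subunits the intervals lay between -0.33 and 0.32. These limits do not carry over to every fit. With an offset for exon length, described below, Psmd11 was at 0.25 ± 0.22 (SE). Psma3 had the smallest p of the core, with 15.0, 15.1, 19.0 and 18.2 CPM in females and 24.6, 20.6, 16.3 and 19.8 CPM in males. The ranges of Psma3 overlapped, and its log2 fold change was -0.30 ± 0.17 (SE, edgeR adjusted p = 0.740). That value ran from -0.39 to -0.19, the latter without male replicate 1, with 1 library left out, and was -0.09 with the GC content offset.

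**Figure D3:**
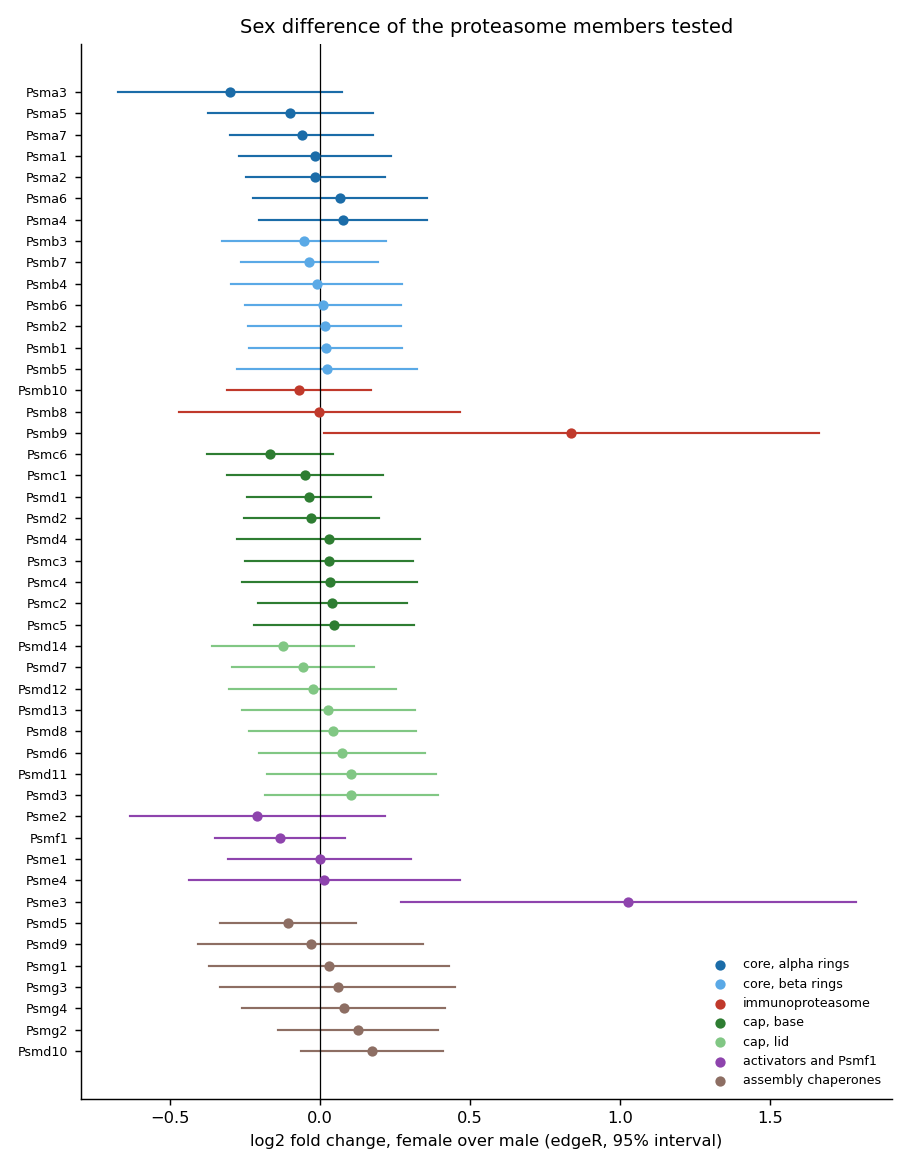
Log2 fold change, female over male, of the 46 tested members (edgeR, points) with 95% intervals (lines), coloured by class. Psme3 at 1.03 and Psmb9 at 0.84 are the members whose interval does not include 0, and the 31 core and cap intervals lie between -0.67 and 0.39.

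Leaving out female replicate 4 changed the picture for the core and cap. Then 30 of 31 members were lower in females by the sign of the fitted log2 fold change, as in the counts that follow, with a median log2 fold change of -0.10, while 48.3% of all tested genes were lower in females and their median was 0.01. At an unadjusted p under 0.05 there were 6 members (11.4% of all 12724 genes tested in that fit, 5.7% higher and 5.72% lower in females): Psma7, Psmc1, Psmc6 and Psmd14, lower in females, and Psmb9 and Psme3, higher in females. None of the 6 passed the adjusted threshold (edgeR adjusted p = 0.312 to 0.429). Of these, Psmc1 and Psmd14 were named after their values in that fit were seen.

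Psmc6, an ATPase of the cap base, had the smallest p of them. It measured 233, 214, 211 and 248 CPM in females and 253, 253, 251 and 246 CPM in males. All females but replicate 4 were below all males, and replicate 4 lay inside the male range. The log2 fold change was -0.17 ± 0.10 (SE, edgeR adjusted p = 0.745) with all libraries and -0.21 ± 0.06 (adjusted p = 0.312) without female replicate 4, and it lay between -0.24 and 0.24 over all alternatives, with adjusted p from 0.312 to 0.972. Psmd14, the cap deubiquitinase that removes the ubiquitin chain, had a log2 fold change of -0.12 ± 0.11 with all libraries, -0.19 ± 0.07 without female replicate 4 and 0.20 with an offset for GC content (SE where given).

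Offsets for gene properties moved the core and cap with all 8 libraries kept. With an offset for exon length 25 of 31 members were lower in females, with a median of -0.05, where 49.9% of all genes were lower, and Psmc6 joined Psme3 and Psmb9 at an unadjusted p under 0.05 (9.63% of 12374 genes passed, 4.81% higher and 4.82% lower in females). With the GC content offset 13 of 31 core and cap members were lower in females, with a median of 0.01, and with library size alone 12 of 31. The core and cap members have a median exon length of 2300 bases, compared with 3832 bases for all tested genes. The part of transcript length in the values of female replicate 4 was not tested further.

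**Figure D4:**
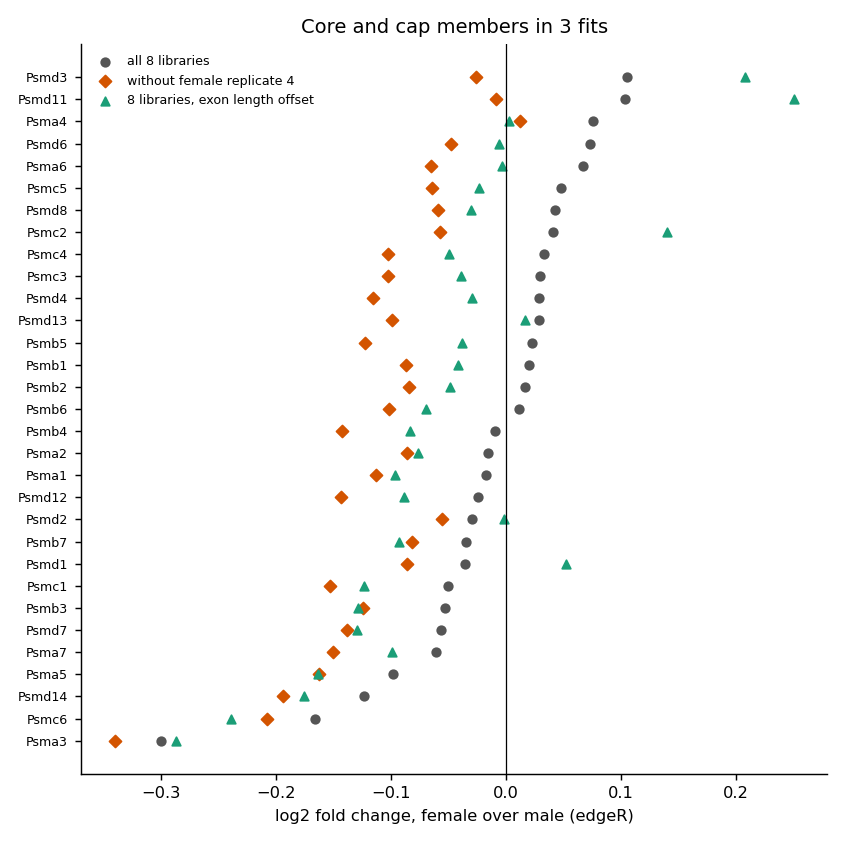
Log2 fold change, female over male, of the 31 core and cap members in 3 edgeR fits: all libraries (circles), without female replicate 4 (diamonds) and all libraries with an exon length offset (triangles). Members lower in females number 15, 30 and 25 in the 3 fits.

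The constitutive catalytic subunits did not differ between the sexes beyond the spread of the libraries. Psmb5, the chymotrypsin-like subunit, had 108, 104, 111 and 156 CPM in females and 117, 115, 114 and 118 CPM in males. Psmb6, the caspase-like subunit, had 297, 305, 304 and 406 CPM in females and 304, 327, 325 and 327 CPM in males. Psmb7, the trypsin-like subunit, had 184, 163, 158 and 193 CPM in females and 167, 176, 188 and 174 CPM in males. The sexes overlapped for each, and the log2 fold changes were 0.02, 0.01 and -0.03 with standard errors of 0.13, 0.12 and 0.10. Female replicate 4 was the highest library for all of them, and without it the changes were -0.12, -0.10 and -0.08.

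The immunoproteasome subunits were detected in every library. Psmb10, the counterpart of Psmb7, had 78.5, 70.6, 71.0 and 87.6 CPM in females and 77.6, 82.3, 77.1 and 81.3 CPM in males. Psmb8, the counterpart of Psmb5, had 31.6, 63.2, 46.9 and 41.9 CPM in females and 46.7, 52.3, 34.2 and 48.1 CPM in males. For both genes the sexes overlapped fully, with log2 fold changes of -0.07 ± 0.11 and 0.00 ± 0.21 (SE).

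Psmb9, the counterpart of Psmb6, was the scarcest of the set, with 22 to 70 reads per library. Its levels were 4.95, 12.1, 10.8 and 4.21 CPM in females and 3.55, 6.24, 3.63 and 4.14 CPM in males. Female replicates 2 and 3 were above every other library, and female replicates 1 and 4 were inside the male range. The log2 fold change was 0.84 ± 0.37 (SE, edgeR unadjusted p = 0.0471, adjusted p = 0.696). With 1 library left out the log2 fold change ran from 0.56, without female replicate 2, to 1.06, without male replicate 2. The unadjusted p was above 0.05 without female replicate 2 or 3 or male replicate 1, 3 or 4, and below it without female replicate 1 or 4 or male replicate 2. Without female replicate 4 the log2 fold change was 1.05 (edgeR unadjusted p = 0.0111, adjusted p = 0.333), and without female replicate 1 it was 1.03 (edgeR unadjusted p = 0.0198, adjusted p = 0.403).

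Reads of each inducible subunit were set against those of its constitutive counterpart in the same library. Psmb10 had 42.7 to 45.3% of the reads of Psmb7 in females and 41.1 to 46.7% in males. Psmb8 had 26.9 to 60.6% of the reads of Psmb5 in females and 29.9 to 45.4% in males. Psmb9 had 1.04 to 3.98% of the reads of Psmb6 in females and 1.12 to 1.91% in males. These are shares of reads, not of protein, and part of the Psmb5 sequence has copies elsewhere. Of the Psmb5 exon bases, 11.8% are also annotated to Mir686 on the same strand. Whether reads there were counted is not known, because the annotation release of the counting was not given. With the reads of each gene divided by its length free of copies, Psmb8 stood at 5.56 to 12.5% of Psmb5 over the 8 libraries.

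The ratios did not differ between the sexes beyond the spread of the libraries. The female minus male difference of the log2 ratio was -0.03 for Psmb8 to Psmb5 (p = 0.886), 0.73 for Psmb9 to Psmb6 (p = 0.257) and -0.04 for Psmb10 to Psmb7 (p = 0.514) in a two-sided exact permutation test over 70 labelings. Adjusted over the 3 ratios, p was 0.771 to 0.886, and the smallest p this design allows before adjustment is 0.0286. The SD within females was 0.54 and 0.91 for the first 2 ratios and 0.04 for Psmb10 to Psmb7 (n = 4).

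Psmb9, Tap1, Psmb8 and Tap2 are neighbours in the class II region of the major histocompatibility complex on chromosome 17, in that order (Psmb9, 17: 34318933 to 34324709, minus strand; Psmb8, 34334666 to 34338399, plus strand, build mm9). Tap1 and Tap2 form the transporter that moves peptides cut by the proteasome into the endoplasmic reticulum for loading on class I molecules. Of 10 antigen presentation genes, 0 passed the adjusted threshold, 2 passed an unadjusted p of 0.05, both higher in females, and 9 had a positive log2 fold change. Among all tested genes, 0.0879% passed the adjusted threshold, 4.44% passed the unadjusted one with females higher, and 49.3% were higher in males. Tap1 had 15.0, 30.0, 26.7 and 10.9 CPM in females and 9.41, 16.9, 13.0 and 9.61 CPM in males (log2 fold change 0.73, edgeR unadjusted p = 0.0482, adjusted p = 0.698). With 1 library left out the log2 fold change of Tap1 ran from 0.49 to 0.94, and the unadjusted p was above 0.05 without the same 5 libraries as for Psmb9. Tap1, Psmb9 and Psmb8 were all highest in replicate 2 and next in replicate 3 among females, and all highest in replicate 2 among males. The exons of Psmb9 and Tap1 overlap on opposite strands over 5.79% of the Psmb9 exon bases, and the strand option of the counting was not given in the sources used here, so reads from the overlap cannot be told apart.

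Tap2 was the 1 antigen presentation gene of 10 that was higher in every female than in every male, as 3.0% of all tested genes were. It measured 61.5, 82.3, 76.5 and 62.3 CPM in females and 47.1, 52.1, 48.7 and 39.6 CPM in males. The log2 fold change was 0.57 ± 0.15 (SE, edgeR unadjusted p = 0.00256, adjusted p = 0.492). Psmb8, which lies beside it, showed no such separation.

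Immune markers are given beside these genes. Their sum over 14 genes was 16.9 to 36.7 CPM in females and 5.87 to 14.2 CPM in males, 12 of the 14 had a higher female mean, and Itgam, Ptprc, Cd68, Csf1r, C1qa, C1qc, Tyrobp and Fcer1g were at 0 in at least 1 library. The 4 genes of the MHC class II pathway in that list (Cd74, H2-Aa, H2-Ab1 and H2-Eb1) summed to 12.8 to 33.1 CPM in females and 3.96 to 8.75 CPM in males. The other 10 summed to 3.54 to 8.09 CPM in females and 1.91 to 5.45 CPM in males, which overlapped, and 8 of them had a higher female mean. Glial markers were higher in the female mean for 12 of 14 genes, and fibroblast markers for 8 of 9 genes, with sums of 105 to 156 CPM in females and 45.8 to 89.0 CPM in males that did not overlap and Col1a1 and Fbln1 at 0 in at least 1 library. Whether these cells contributed to the levels of Psmb9, Tap1, Tap2 and Psme3, which is described next, was not tested, and in sorted bulk samples fewer cells of a type and less RNA per cell cannot be told apart.

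Psme3, which forms a nuclear activator that opens the core without ubiquitin or ATP, had the largest fold change of the 46 tested members. It measured 20.3, 72.4, 75.0 and 76.1 CPM in females and 25.8, 26.3, 31.0 and 34.8 CPM in males. Female replicates 2 to 4 were above all males by a wide gap, and female replicate 1 was the lowest of the 8 libraries. Among the markers, Nefh (neuronal) and Sox10 (glial), chosen after their values were seen, were also high in female replicates 2 to 4. Nefh had 527, 1090, 1663 and 1155 CPM in females and 280 to 625 CPM in males, and Sox10 had 31.2, 79.3, 105 and 77.2 CPM in females and 11.2 to 31.5 CPM in males. For both, female replicate 1 lay inside the male range, and their part in the Psme3 values was not tested. Other markers did not share this pattern. The glial genes Erbb3 and Fabp7 had 36.8, 33.3, 29.4 and 6.57 CPM and 674, 679, 552 and 739 CPM in females. Females had the higher mean for 9 of 15 neuronal and 12 of 14 glial markers. Of those tested, 1 of 15 and 4 of 13 passed an unadjusted p under 0.05 (edgeR) with females higher, as 4.44% of all tested genes did. The log2 fold change of Psme3 was 1.03 ± 0.34 (SE, edgeR unadjusted p = 0.0127, adjusted p = 0.637). All coding 50-base windows of Psme3 are free of identical copies, and its exons overlap no other annotated gene.

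The call for Psme3 turned on that 1 library. Without female replicate 1 the log2 fold change was 1.33 ± 0.14 (SE, edgeR adjusted p = 0.00396), and Psme3 was the only member among the 84 genes (0.668% of 12573) that passed the adjusted threshold in that fit. Over all alternatives the log2 fold change lay between 0.83 and 1.33 and the adjusted p between 0.00396 and 0.972. The other activators showed no such difference. Psme1 and Psme2, which form the interferon-induced activator of the core, had log2 fold changes of 0.00 ± 0.14 and -0.21 ± 0.19 (SE), and Psme4 and Psmf1 0.01 ± 0.20 and -0.13 ± 0.10.

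**Figure D5:**
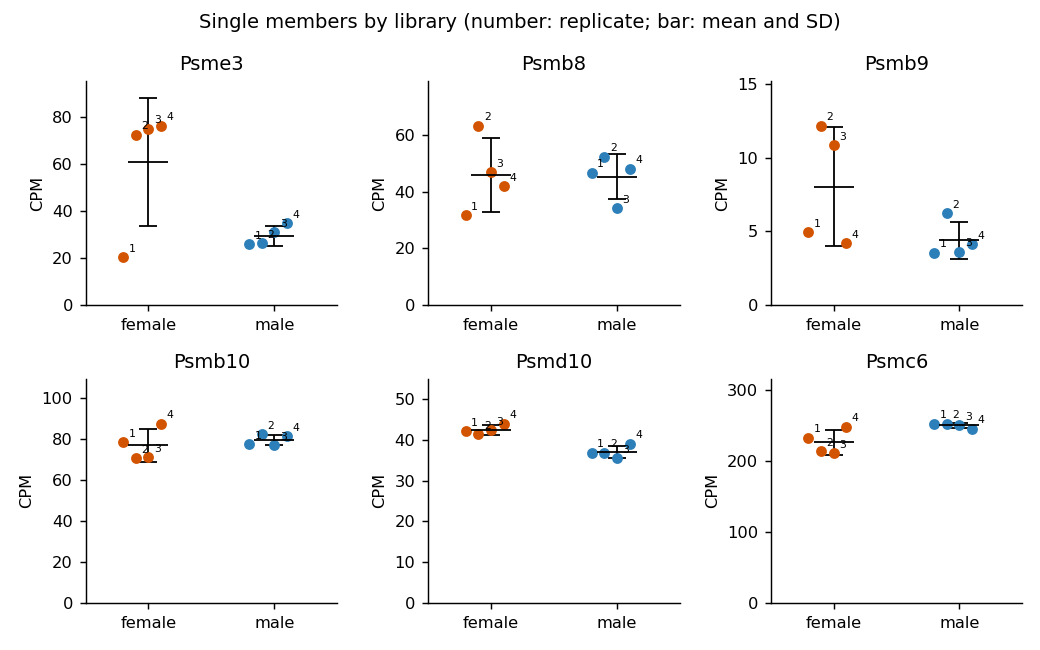
CPM of 6 members in each library, by sex, with replicate numbers beside the points and bars for the mean and SD (n = 4 per sex). Psme3 is at 72.4 to 76.1 CPM in female replicates 2 to 4 and at 20.3 CPM in female replicate 1, and the male libraries lie between 25.8 and 34.8 CPM.

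Among the assembly chaperones, Psmd10 was the one member of all 46 whose sexes did not overlap (5.52% of all tested genes did not overlap, 3.0% with females and 2.52% with males higher). Psmd10, also called gankyrin, is a chaperone of the cap base and is X-linked (chrX:137482968-137491267 in mm9, on the minus strand). It had 42.1, 41.3, 42.3 and 44.0 CPM in females and 36.8, 36.8, 35.5 and 39.0 CPM in males, and it was singled out after its values were seen. Every female was above every male, and the log2 fold change was 0.17 ± 0.11 (SE, edgeR unadjusted p = 0.133, adjusted p = 0.768), with 0.11 under the exon length offset and 0.33 under the GC content offset. The study listed Psmd10 as higher in males in trigeminal ganglion neurons enriched by a Percoll gradient, which is another ganglion and preparation. Here, the other 6 assembly genes overlapped between the sexes. Their log2 fold changes ran from -0.11 for Psmd5 to 0.13 for Psmg2, a chaperone of the alpha ring.

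Genes that work with the proteasome without being subunits by name also gave few calls between the sexes. Female replicate 4 was the highest library for some, such as Pomp and Ubb, and the lowest for others, such as Uba1 and Nfe2l1. These examples were named after their values were seen. Of 30 listed genes 29 were in the count tables and tested (ubiquitin receptors, cap-bound enzymes, shuttle factors, ubiquitin genes and transcription factors of the proteasome genes). Of these, 0 passed the adjusted threshold and 1 passed an unadjusted p of 0.05 (0.0879% and 7.11% of all tested genes, 2.67% at the unadjusted threshold with males higher), with a median log2 fold change of -0.02. That gene was Usp14, a deubiquitinase bound to the cap, with 339, 314, 320 and 317 CPM in females and 388, 365, 366 and 362 CPM in males. Every female was below every male, and the log2 fold change was -0.22 (edgeR unadjusted p = 0.0355, adjusted p = 0.685), or 0.028 with the GC content offset. Ngly1 and Txnl1, named after their values were seen, were likewise below every male in every female, so that 3 of 29 genes did not overlap in that direction, compared with 2.52% of all tested genes.

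Promoters were read from RefSeq (build GRCm38.p6, 250 bases before to 50 after the start site) for the 41 members that matched, with any listed start site of a gene counted. The antioxidant response element, searched as TGACNNNGC on both strands, was in 6 of 41 promoters (14.6%) and in 14% of those of 27025 genes. The interferon response motif, searched as GAAA, any 2 bases and GAAA on both strands, was in 5 of 41 (12.2%) and in 3.99% of all genes, and the letters CCAAT in 36.6% and 41.1%. The 5 were Psmb3, Psmd4, Psmd9, Psme1 and Psmg4. Their log2 fold changes, female over male, were -0.05, 0.03, -0.03, -0.0016 and 0.08 in that order (DESeq2). A match describes the letters only, and no match says only that these letters are not in this window.

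The examples below are from the catalytic subunits Psmb5 (chr14:54618026-54618050, minus strand) and Psmb6 (chr11:70525340-70525364, plus strand), with the antioxidant element in capitals, and from the interferon-induced activator Psme1 (chr14:55578495-55578520, plus strand), with the interferon motif in capitals as read on the opposite strand. All are written along the gene strand, 5′ to 3′.

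Psmb5 promoter: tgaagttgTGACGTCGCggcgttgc
Psmb6 promoter: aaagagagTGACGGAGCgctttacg
Psme1 promoter: agctgtgcTTTCGCTTTCccttcccg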

How the data were processed

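Libraries of 4 female and 4 male samples of sorted DRG neurons were analysed. The deposited values are raw counts per gene symbol, which the authors obtained by TopHat2 alignment (default settings) of 50-base single reads to mm9 and HTSeq-count, with no normalization. Per the submitters' processing notes bcl2fastq was also used; tool versions, annotation release and strand option were not given in the sources used here. The 5 summary lines of the counting program were left out of library sizes. They held 8.57 to 13.3 M alignments at several places per library, which were not counted for any gene. Of the uniquely aligned reads of a library, 39.4 to 42.1% were counted for a gene. Another 0.145 to 0.169% were ambiguous between genes, and the rest matched no gene. Reads carry no molecular identifiers, so the floors of 3 reads cover counting error only, while the 95% intervals of fold changes come from the edgeR fit and include the spread between libraries.

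CPM were computed on gene reads. Counts were tested between the sexes with the edgeR 4.0.16 quasi-likelihood test (TMM scaling, default expression filter, sex only, Benjamini-Hochberg over all tested genes) in R 4.3.3. DESeq2 1.42.0, limma-voom 3.58.1, other scalings, filters, offsets for exon length and GC content, a replicate block and leaving out each library were alternatives. The inducible to constitutive ratios used log2 of counts plus 0.5. The fit was tested on simulated data. Gene models came from GENCODE M1 on NCBIM37 (mm9), and windows of 50 bases were matched exactly against that genome on both strands. Coordinates are 1-based. Python 3.11.15 with numba 0.67.0 and matplotlib 3.10.9 did the rest.

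Named genes were the catalytic and tissue-specific subunits, the highest and lowest member of each class per transcript length, and members or related genes with an unadjusted p under 0.05; exceptions are stated where they occur. Members and lists were chosen with earlier results of these data known. Protein sequences were not used here.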

Additional observations from a re-analysis of the deposited data

Results flagged for a closer look

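Values were examined in 68 groups of 4 libraries (named members and related genes, class sums and ratios, by sex) for a library whose gap to its nearest neighbour, as a share of the group's range, exceeded Dixon's 95% critical value. This flagged 13 groups, and chance flags about 1 in 20. The groups share libraries and genes, so the flags are not independent.

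Female replicate 4 was flagged 6 times, always as the highest female. Its values were 156 CPM for Psmb5 (other females 104 to 111), 406 CPM for Psmb6 (297 to 305), 64.3 CPM for Psmd9 (41.8 to 42.5), 1407 CPM for the summed alpha subunits (1067 to 1124), 2037 CPM for the summed beta subunits (1514 to 1559) and 367 CPM for the summed assembly chaperones (293 to 305). Female replicate 1 was flagged for Psme3, at 20.3 CPM against 72.4 to 76.1 CPM in the other females.

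Among males, replicate 1 was flagged for Psmb6 at 304 CPM (other males 325 to 327) and Usp14 at 388 CPM (362 to 366). Male replicate 3 was flagged for Psma7 at 368 CPM (387 to 390), the summed lid subunits at 1460 CPM (1519 to 1530) and the share of Psmb10 to Psmb7 reads at 41.1% (46.5 to 46.7%). Male replicate 4 was flagged for Psmd9 at 39.0 CPM (49.9 to 51.7).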

How the results depend on the processing

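The count of 0 members at an adjusted p under 0.05 held in every alternative except without female replicate 1, where it was 1 (Psme3). Leaving out 1 library at a time, it ran from 0 to 1, the count at an unadjusted p under 0.05 from 1 to 6 (2 with all libraries), the core and cap members lower in females from 9, without female replicate 2, to 30, without female replicate 4 (15 with all libraries), the related genes at an unadjusted p under 0.05 from 0 to 6, the latter without female replicate 4 (1 with all libraries), and the antigen presentation genes from 1 to 5, the latter without female replicate 4 (2 with all libraries). In that fit 11.4% of all tested genes passed the unadjusted threshold. limma-voom gave 0 members and 1 antigen presentation gene at an unadjusted p under 0.05. The related genes at that threshold were 3 by DESeq2 (7.42% of all tested genes), 4 with the exon length offset (9.63%), 0 with library size alone and 0 without the low-count filter. With the exon length offset, 25 core and cap members were lower in females. The causes were not tested.

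The median log2 fold change over members ran from -0.09 to 0.06 with libraries left out. Changes of sign were frequent among members near 0, and Psmc6, Psmd14 and the related gene Usp14 changed sign with the GC content offset alone. All these were at an adjusted p above 0.05. Psmd5 and Psmf1 kept their sign and are listed because they moved toward 0. With the GC content offset the log2 fold change was -0.075 for Psmb5, 0.0044 for Psmb7, 0.24 for Psmc6, 0.20 for Psmd14, -0.015 for Psmd5 and 0.028 for Usp14. With the exon length offset it was -0.038 for Psmb5, -0.069 for Psmb6, 0.051 for Psmd9, -0.014 for Psmf1 and -0.023 for Psmc5, and with library size alone 0.016 for Psmb8. Leaving out 1 library at a time, it ran from -0.12 to 0.080 for Psmb5, -0.10 to 0.064 for Psmb6, -0.082 to 0.0011 for Psmb7, -0.20 to 0.15 for Psmb8, -0.093 to 0.18 for Psme4, -0.20 to 0.036 for Psmd9, -0.064 to 0.11 for Psmc5, -0.0082 to 0.17 for Psmd11, -0.12 to 0.013 for Psmb3 and -0.15 to 0.0065 for Psmc1. The difference of the log2 Psmb8 to Psmb5 ratio ran from -0.26 to 0.13.

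The labels state no link between libraries with the same number. Their deviations from the group means correlated at 0.09, -0.11, 0.14 and 0.00, and those of pairs with different numbers at -0.24 to 0.15. These values cannot show whether libraries with the same number were handled together. With the number as a replicate block, 0 members passed the adjusted and 2 the unadjusted threshold, the same counts as without it. Depth limits Psmb9, at 22 to 70 reads per library, and put Psma8, Psmb11 and Psmc3ip under the default low-count filter of edgeR with all libraries.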
